A study of Mus musculus with 12 samples.

Results

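Nanog, Gdf3, Dppa3, Apobec1 and Slc2a3 are 5 protein-coding genes that lie side by side along 223.8 kb of mouse chromosome 6, with Nanog near the middle. They were chosen by gene symbol, for their place at the Nanog locus, and are 5 of the 20325 genes whose expression was estimated in every library. The study of these libraries had already listed Nanog, Dppa3, Gdf3 and Apobec1 as neighbouring upregulated genes. The choice was therefore not independent of the values below. In the mm9 genome Apobec1 spans chr6:122527810-122552462 and Gdf3 chr6:122555421-122560105, both on the minus strand and 3.0 kb apart. Dppa3 follows on the plus strand at chr6:122576428-122580290, so that Gdf3 and Dppa3 are transcribed away from each other. Nanog lies on the plus strand at chr6:122657507-122664651, 77.2 kb beyond Dppa3. Slc2a3 lies 13.2 kb beyond Nanog on the minus strand at chr6:122677827-122751658, and these 2 genes point towards each other. Apobec1 was measured over 2 RefSeq transcripts and each of the other genes over 1.

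RNA was sequenced from mouse pre-iPSCs, a clonal line of partially reprogrammed cells, at 48 h of treatment in ESC media. The 4 conditions were the DMSO control, AA (ascorbic acid, 50 μg ml−1), 2i (a MEK inhibitor, PD0325901, at 1 μM and a GSK inhibitor, CHIR99021, at 3 μM) and AA+2i at the same doses, each with 3 biological replicates labelled A, B and C, which made 12 libraries. Cells of all 4 conditions had been kept on irradiated feeders and were treated without the feeder layer. The comparison asked how the genes of the locus responded to AA, to 2i and to both before colonies of reprogrammed cells had formed. The pre-iPSC lines of the study carried introduced Oct4, Sox2, c-Myc and Klf4 and came from fibroblasts with a Nanog-GFP reporter or from astrocytes without it. The labels do not say which line was sequenced, although the study chose day 2 because Nanog-GFP colonies were still absent, which points to a reporter line. Reads from a reporter allele at Nanog cannot be told apart from those of the native gene. Beyond the words biological triplicate the sources used here do not say what separated the replicates, and p-values measure only the spread between these libraries.

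Nanog encodes a homeodomain transcription factor that sustains the self-renewal of embryonic stem cells, and it is switched on late in reprogramming. Its neighbours Gdf3 and Dppa3 are also expressed in pluripotent cells, and the stretch from Apobec1 to Slc2a3 is known as a cluster in which pluripotency genes stand among genes of broader expression. AA is a cofactor of dioxygenases that include the Tet enzymes and many histone demethylases, whereas 2i blocks a differentiation signal and a kinase that restrains Wnt signalling.

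The Nanog promoter is shown because Nanog gives the locus its name and because its upstream bases hold the letters of a joint OCT4 and SOX2 element. RefSeq (GRCm38.p6, a later build than that of the counts) gives Nanog 2 start sites. The 250 bases before the upstream one are at chr6:122707239-122707488 on the plus strand, and the capitals mark an octamer-like stretch overlapping the composite letters, both read on the opposite strand.
Nanog promoter, 250 bases before the start: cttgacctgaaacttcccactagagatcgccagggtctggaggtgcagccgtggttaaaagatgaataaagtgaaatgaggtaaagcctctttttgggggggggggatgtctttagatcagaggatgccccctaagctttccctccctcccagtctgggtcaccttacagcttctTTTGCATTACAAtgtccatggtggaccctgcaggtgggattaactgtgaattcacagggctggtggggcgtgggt
The composite was searched as TTGTNATGC on both strands and lay from −72 to −64 relative to the start, counted on the strand of the gene. It overlaps the octamer-like letters ATGCAAA, found from −75 to −69. Of the 32851 promoter windows of 300 bases in the table (250 before to 50 after a start), 0.731% held the composite and 4.63% the octamer-like letters. The window of Apobec1 held only the octamer-like letters, from +2 to +8, and no composite. The Nanog windows held neither the E-box letters CACGTG, present in 7.15% of all windows, nor the TCF-like letters CTTTGAA, present in 5.14%, on either strand. The GC box GGGCGG, in 35.7% of windows, was also not among them. Nanog had 4 CpG in its window, fewer than the median of 7 over all windows, and Apobec1 had 9. A match to such letters describes the sequence and is not evidence of binding. Promoter sequences of Gdf3, Dppa3 and Slc2a3 were not used here.

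Expected counts summed to between 16173322 and 54392719 per library, with a median of 21854761. Replicate B had the largest total in each of the 4 conditions. The excess was large only in DMSO B (49270873) and AA B (54392719). 2i B held 22914785 and AA+2i B 23653287, close to the other libraries of their conditions. Values below are TPM (transcript abundance scaled for gene length and library) where levels are given, and log2 fold changes ± standard error from edgeR's quasi-likelihood test on the counts where conditions are compared. A gene is called changed at a Benjamini-Hochberg adjusted p under 0.05 over the 13400 genes that reached 10 counts in 3 or more libraries, and all 5 genes passed that filter. Dppa3 passed only through libraries with AA, since its DMSO and 2i libraries held at most 4 counts each. Of the pre-iPSC and epithelial markers, the summed TPM of Cdh1, Epcam and Fut4 was 98 to 149 in DMSO, 110 to 127 with 2i, 218 to 328 with AA and 253 to 305 with AA+2i, and Fut4 stayed near 0. The sum of 12 fibroblast and feeder markers was 15.7 to 80.5 in DMSO and 19.3 to 46 with AA. It was 11.4 to 14 with 2i and 13.9 to 17.8 when both were given, and Lum was at 0 throughout. Fbln2 had the highest mean of the 12 in DMSO, 28.9 TPM, and fell to 3.55 under the combination. Other markers moved the other way. Mean Thy1 was 12.6 under AA against 5.13 in DMSO, and Col1a1 was 1.64 under the combination against 0.733. Of the 10 tested, edgeR called 1 higher and 1 lower under the combination than in DMSO. The sum of 8 primitive endoderm markers was between 2.22 and 4.54 in every library, and that of 7 macrophage markers was between 9.73 and 28.8, most of it Cd68, with Emr1 at 0. The part of these markers in the results below was not tested.

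Nanog rose with AA and rose with AA+2i, in which every library lay above every AA library. In DMSO its TPM was 2.93 in replicate A, 3.16 in B and 7.14 in C. With AA it was 19.6, 16.8 and 17.1. With 2i it was 6.92, 6.37 and 4.96. The DMSO and 2i libraries overlapped, and DMSO C lay above every 2i library. With AA+2i the TPM was 37.1, 40.9 and 31.7, above the highest library of the other conditions, AA A. The means were 4.41 ± 2.37 in DMSO and 6.08 ± 1.01 under 2i, 17.8 ± 1.54 under AA and 36.6 ± 4.62 under the combination (SD, n = 3 each). The order was therefore DMSO and 2i, which were not separated, then AA, then AA+2i. Because RNA was taken from whole cultures, more cells with Nanog RNA and more Nanog RNA per cell cannot be told apart, here and for every gene below.

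Against DMSO, Nanog rose by 2.02 ± 0.34 on the log2 scale with AA (4.06-fold, edgeR adjusted p = 0.0168) and by 3.23 ± 0.36 with AA+2i (9.4-fold, adjusted p = 0.000499). In the presence of 2i, addition of AA raised Nanog by 2.61 ± 0.35 (adjusted p = 0.00632). With 2i alone the difference from DMSO was 0.62 ± 0.34 (adjusted p = 0.409). AA+2i exceeded AA by 1.21 ± 0.33, 2.32-fold, which missed the threshold (edgeR adjusted p = 0.0548), although the TPM of the 2 conditions did not overlap. The last difference passed with DESeq2 (adjusted p = 0.00366), after correction for GC content (0.0151) and when only the groups compared were fitted (0.0271), and passed without DMSO A, DMSO B or DMSO C (edgeR adjusted p = 0.0425, 0.0344 and 0.00479). The AA call was lost without DMSO A, DMSO B, AA B or AA C, with edgeR adjusted p between 0.0587 and 0.0671, and 2i alone was called higher without DMSO C (1.22, adjusted p = 0.0163). Without all libraries of replicate A, B or C, both the AA call (edgeR adjusted p = 0.141, 0.747 and 0.0549) and the call of AA+2i over 2i (0.0633, 0.494 and 0.0618) were lost.

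Nanog can share reads with Nanogpd, a Nanog pseudogene, since the authors' software divides reads that match several genes. None of the 12 counts was whole (within 0.005) for Nanog, nor for Gdf3 or Slc2a3, and 1 was for Apobec1. Nanogpd was at 0 in 9 libraries and held 27.7 expected counts in AA B, 28.3 in AA+2i B and 51.6 in AA+2i C. These are 4.25%, 3.99% and 8.34% of the counts of the 2 genes together. With both summed, AA+2i exceeded AA by 1.26 (edgeR adjusted p = 0.0479).

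Gdf3, a ligand of the TGF-beta family that uses the Nodal receptors, rose with AA to the same range whether or not 2i was present. Its TPM in DMSO was 2.12 in replicate A, 4.34 in B and 4.98 in C. With AA it was 29.9, 45.1 and 58.3. With 2i it was 3.19, 3.2 and 3.52. The 2i libraries fell inside the DMSO range, and each AA library was far above both. With AA+2i the TPM was 38.3, 40.4 and 44.6, which lay within the AA range. Means were 3.81 ± 1.5 in DMSO and 3.3 ± 0.188 under 2i, 44.4 ± 14.2 under AA and 41.1 ± 3.17 under the combination (SD, n = 3).

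The rise of Gdf3 was 3.59 ± 0.37 with AA (12-fold, edgeR adjusted p = 0.00146) and 3.65 ± 0.37 with AA+2i (12.6-fold, adjusted p = 0.000353). Given 2i, addition of AA raised it by 3.66 ± 0.37 (adjusted p = 0.00186). The difference of 2i from DMSO was −0.01, with a 95% interval from −0.77 to 0.75 (edgeR adjusted p = 0.991). AA+2i and AA differed by 0.07, with an interval from −0.66 to 0.80 (edgeR adjusted p = 0.924). No single library decided a Gdf3 call, whereas the AA call was lost without all replicate B libraries (adjusted p = 0.412) or all replicate C libraries (0.0632).

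Dppa3, also known as Stella, encodes a protein that shields DNA methylation marks in the early embryo, and its RNA was near the limit of detection outside AA+2i. The DMSO libraries held 1, 1 and 1.95 counts in replicates A, B and C, or 0.16, 0.06 and 0.3 TPM. With 2i there were 1, 2 and 4 counts (0.12, 0.2 and 0.53 TPM). With AA there were 6, 20 and 31 counts (0.8, 0.92 and 3.2 TPM). Every AA library was above every DMSO and 2i library, with AA C well above AA A and AA B. With AA+2i the libraries held 73, 125 and 204 counts, or 9.18, 12.8 and 19.4 TPM, all above the highest AA library. The counts were whole in 11 of 12 libraries (within 0.005), unlike those of the other 4 genes. Mean TPM was 0.173 ± 0.121 in DMSO and 0.283 ± 0.217 under 2i, 1.64 ± 1.35 under AA and 13.8 ± 5.21 under the combination (SD, n = 3).

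By summed counts per library size, Dppa3 was 11.9 times as high with AA as in DMSO, with a 95% exact interval of 4.39 to 45 that covers counting error only. The ratio of AA+2i was 131 to DMSO (50.7 to 483), 53 to 2i (25.5 to 133) and 11 to AA (8.34 to 14.8). That of 2i to DMSO was 2.47 (0.628 to 11.5). Across replicates the gain with AA alone, 3.47 ± 0.88 on the log2 scale, was not called (edgeR adjusted p = 0.105), although DESeq2 called it (adjusted p = 0.0129). Dppa3 rose by 6.75 ± 0.86 with AA+2i against DMSO (edgeR adjusted p = 0.00103), by 5.63 ± 0.78 against 2i (0.00729) and by 3.28 ± 0.64 against AA (0.0121). The gain over 2i was lost without 2i A (adjusted p = 0.0565) or 2i B (0.0671), and that over AA without AA B (2.96, adjusted p = 0.0677). The gain over 2i was also lost without all libraries of replicate A, B or C (edgeR adjusted p = 0.0633, 0.508 and 0.0572). Dppa3 was the 1 gene of the 5 that was called between AA+2i and AA.

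Apobec1 encodes a cytidine deaminase that edits apolipoprotein B RNA, and it was expressed at a steady level with a small difference between libraries with and without AA. Its TPM in DMSO was 71.7 in replicate A, 60 in B and 78.5 in C. With 2i it was 68.9, 59.4 and 64.8. With AA it was 131, 99.2 and 84.9, and with AA+2i it was 98.9, 131 and 82.6. The lowest library with AA, at 82.6, was above the highest without it, at 78.5. The 2 conditions with AA overlapped each other, as did the 2 without. Mean TPM was 64.3 ± 4.77 under 2i and 70.1 ± 9.36 in DMSO, 105 ± 23.8 under AA and 104 ± 24.5 under the combination (SD, n = 3).

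The Apobec1 differences were 0.59 ± 0.21 with AA (1.5-fold, edgeR adjusted p = 0.334) and 0.75 ± 0.21 with AA+2i (1.68-fold, adjusted p = 0.0564), and neither was called. That of AA+2i from 2i was 0.70 ± 0.21 (edgeR adjusted p = 0.196). With 2i alone it was 0.05, with a 95% interval from −0.42 to 0.52 (adjusted p = 0.914). The AA+2i difference passed with TMM factors (edgeR adjusted p = 0.0387), DESeq2 (0.0142) and GC correction (0.94, adjusted p = 0.00157), and without AA A (0.0415). With GC correction the AA difference (0.65, edgeR adjusted p = 0.0377) and that of AA+2i from 2i (0.78, adjusted p = 0.0151) passed as well.

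Slc2a3 encodes GLUT3, a high-affinity glucose transporter, and it was the 1 gene of the 5 whose 2i libraries all lay below the DMSO libraries and whose AA+2i libraries stayed in the DMSO range. Its TPM in DMSO was 84.7 in replicate A, 151 in B and 194 in C. With AA it was 268, 240 and 353, and with 2i 55.4, 50.6 and 68.9. Every AA library was above every DMSO library and every 2i library below, while DMSO itself spread widely. With AA+2i the TPM was 136, 142 and 150, inside the DMSO range and above every 2i library. Mean TPM was 58.3 ± 9.49 under 2i, 143 ± 54.9 in DMSO, 143 ± 7.35 under the combination and 287 ± 58.8 under AA (SD, n = 3). Among the 5 genes Slc2a3 had the highest mean TPM in every condition but 2i, where Apobec1 did, and Dppa3 the lowest in all 4 conditions.

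For Slc2a3 the difference from DMSO was 1.04 ± 0.31 with AA (edgeR adjusted p = 0.184) and −1.10 ± 0.31 with 2i (adjusted p = 0.0736), and neither passed. The 2i difference passed with DESeq2 (adjusted p = 0.0155), with limma on log2(TPM + 1) (−1.21, adjusted p = 0.0323), with GC correction (0.0345) and without DMSO A (−1.35, adjusted p = 0.0278). AA+2i differed from DMSO by 0.21 (95% interval −0.45 to 0.88, edgeR adjusted p = 0.637) and from AA by −0.82 ± 0.31 (adjusted p = 0.171). AA+2i exceeded 2i by 1.31 ± 0.31 (edgeR adjusted p = 0.0839), which passed with DESeq2 (0.00471) and without DMSO A (0.0422).

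**Figure D1:**
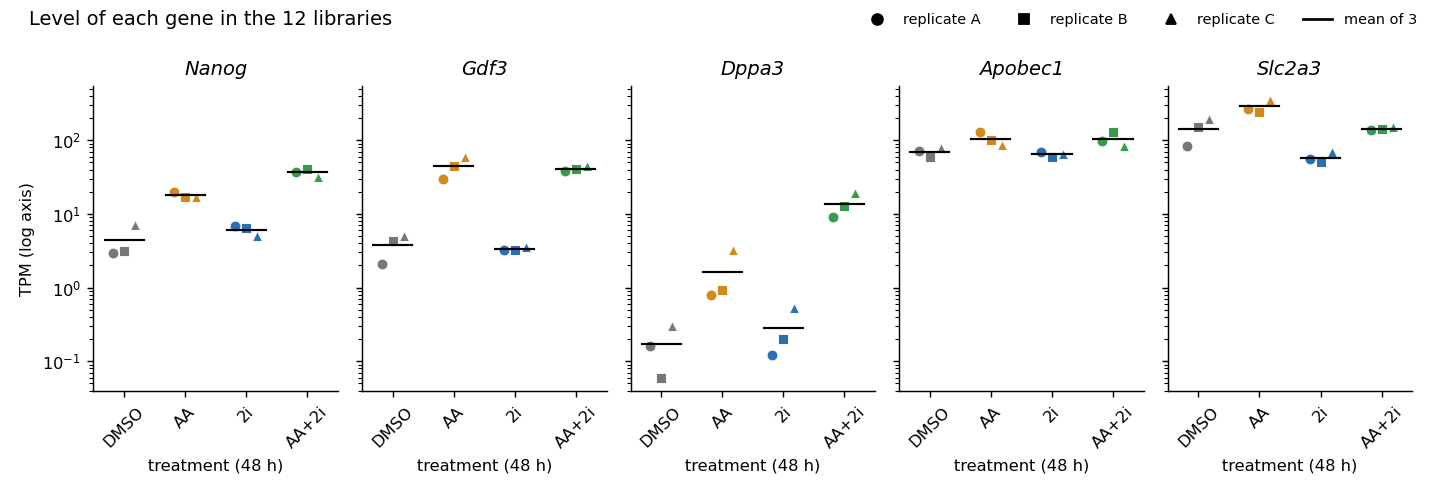
TPM of each gene (vertical, log axis) in the 3 replicates of each treatment (horizontal), with a black bar for the mean of 3. Nanog and Gdf3 were high in both conditions with AA, Dppa3 reached 9.18 to 19.4 TPM with AA+2i but at most 3.2 with AA, Apobec1 differed little, and Slc2a3 was lowest with 2i, at 50.6 to 68.9 TPM.

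Across the locus, 2 of the 5 genes rose with AA against DMSO (Nanog and Gdf3), where 0.866% of all tested genes rose. With AA+2i against DMSO 3 of the 5 rose (Nanog, Gdf3 and Dppa3), beside 3.93% of all tested genes. With AA+2i against 2i the same 3 genes rose, beside 0.761%. Of these, Dppa3 passed the count filter only through libraries with AA. Its rise there was partly required for it to be tested, in these counts and in those for AA below. Dppa3 was the 1 gene that rose with AA+2i over AA, beside 2.81%. With 2i alone none of the 5 was called by edgeR's quasi-likelihood test, where 4.42% of all genes were called in either direction. At an unadjusted p under 0.05 there was 1 (Slc2a3), and DESeq2 and limma each called 1. The median log2 fold change of the 5 genes was 2.02 under AA, 0.05 under 2i and 3.23 under AA+2i, and that of all tested genes was −0.01, −0.02 and −0.02. The comparisons with DMSO share its 3 libraries. Because the 5 genes were chosen with earlier results of these data known, these shares and medians describe them and are no independent support. Without the 4 replicate B libraries none of the 5 was called in any comparison, at an edgeR adjusted p of at least 0.0981 against DMSO with AA+2i, and the count over all genes in that comparison fell from 1117 to 18.

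**Figure D2:**
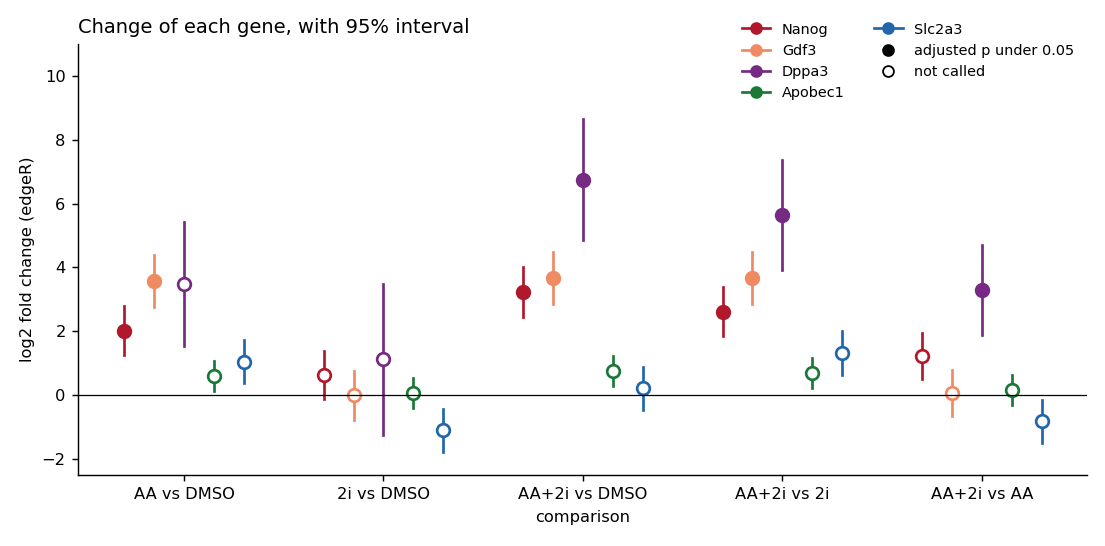
Log2 fold change of each gene from edgeR (vertical) in 5 comparisons (horizontal), with 95% intervals and filled points where the adjusted p was under 0.05. Dppa3 had the highest point with AA+2i, at 6.75, and Gdf3 lay at 3.59 with AA and 3.65 with AA+2i.

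TPM ranges gave a wider count, since they take no account of the size of the gap. All 5 genes were higher in every AA library than in every DMSO library, which held for 5.36% of the tested genes. With AA+2i against DMSO 4 of the 5 did not overlap (9.6% of genes), Slc2a3 being the exception. With AA+2i against 2i all 5 did not overlap (9.72%). When the 6 libraries with AA were set against the 6 without, the same 4 genes other than Slc2a3 were higher with no overlap (1.24%).

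No gene of the 5 passed a test of the interaction, that is, of whether the log2 changes of the single treatments add up to that of AA+2i, which 0.0149% of all genes passed (2 genes). None had an unadjusted p under 0.05 by edgeR as reported, and DESeq2 and limma called none either. The estimates on the log2 scale were 0.59 ± 0.47 for Nanog, 0.08 ± 0.48 for Gdf3, 2.16 ± 1.40 for Dppa3, 0.11 ± 0.30 for Apobec1 and 0.28 ± 0.43 for Slc2a3. The 95% interval for Dppa3 ran from −0.92 to 5.25. Its estimate was above 0 under every alternative, and its unadjusted p depended on the fit. It was 0.000277 with limma on log2(TPM + 1) (2.42, adjusted p = 0.133), 0.00593 with limma on log2(TPM + 0.1) and 0.0257 by edgeR without AA C (3.08, interval 0.46 to 5.71), each above the threshold after adjustment. By edgeR with the replicate block it was 0.0344 (2.38), and with GC correction and the block 0.0348 (2.35). Neither passed after adjustment. Intervals of these fits with the block are not given, since they were narrower than the p-values imply. On log2(TPM + 1) the Dppa3 change with AA alone was 1.06, against 3.47 from the counts.

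The absence of a called interaction does not show that an effect was equal with and without the other treatment. The effect of AA was also averaged over the absence and presence of 2i, a contrast chosen after seeing the data. In this contrast all 5 genes rose, beside 2.81% of all tested genes. Gdf3 rose by 3.63 ± 0.26 (edgeR adjusted p = 6.54e-05), Nanog by 2.31 ± 0.24 (0.000552) and Dppa3 by 4.55 ± 0.58 (0.0017). Slc2a3 rose by 1.18 ± 0.22 (edgeR adjusted p = 0.0116) and Apobec1 by 0.64 ± 0.15 (0.0374). The call for Apobec1 was lost without any one of the replicate letters (adjusted p = 0.142, 0.611 and 0.147 without A, B and C) and with limma (0.0536). Without replicate B none of the 5 was called, at adjusted p between 0.0731 and 0.611.

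The effect of 2i averaged over the absence and presence of AA, also chosen after seeing the data, was called for 3 of the 5 genes, beside 13.3% of all genes in either direction. Nanog rose by 0.92 ± 0.24 (edgeR adjusted p = 0.0253) and Dppa3 by 2.20 ± 0.64 (0.044), while Slc2a3 fell by 0.96 ± 0.22 (adjusted p = 0.0131). For Dppa3 the estimates averaged were 1.12 ± 1.07 without AA (7 counts against 4) and 3.28 ± 0.64 with AA. Its average therefore describes neither background alone. Gdf3 differed by 0.03 (95% interval −0.50 to 0.56, edgeR adjusted p = 0.942) and Apobec1 by 0.11 (−0.23 to 0.44, adjusted p = 0.644). Slc2a3 and Nanog, 13.2 kb apart, thus had opposite signs in this contrast. The Nanog call was lost without replicate A (adjusted p = 0.118) or B (0.306), that of Dppa3 without A (0.0785) or B (0.311) and with GC correction (0.0516), and that of Slc2a3 without B (0.218) or C (0.0537).

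Beyond the 5 genes, the start of 15 further genes of the table lay within 500 kb of the Nanog start, and 7 of them had enough counts for the test. The other 8 had at most 19 counts in a library. Among the 7 tested neighbours, edgeR's quasi-likelihood test called 0 of M6pr, Foxj2 and Necap1 with AA, 2i or AA+2i against DMSO. At an unadjusted p under 0.05 there was 1 with AA+2i (0 with AA or 2i), and DESeq2 called 1 (Foxj2, with AA+2i) and limma 0. Phc1, a Polycomb gene at −366.9 kb (negative distances point to the Apobec1 side), fell by 1.19 ± 0.23 with 2i (edgeR adjusted p = 0.0155) and by 0.99 ± 0.23 with AA+2i (0.0234). Rimklb, at −221.2 kb, fell by 1.92 ± 0.42 with AA+2i (edgeR adjusted p = 0.0175).

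On the Slc2a3 side the nearest gene that was called was Clec4a1, a C-type lectin gene 214.4 kb from Nanog, which fell by 3.38 ± 0.28 with 2i (edgeR adjusted p = 0.000116) and by 1.62 ± 0.25 with AA+2i (0.00317). Its difference with AA was 1.13 ± 0.24 (adjusted p = 0.0507). Clec4a3, 245.0 kb away, held 0 to 5 counts in DMSO, 64 to 119 with AA, 0 in all 2i libraries and 18 to 30 with AA+2i. It passed the count filter only through libraries with AA, so a rise with AA was partly required for it to be tested. Clec4a3 rose by 5.16 ± 0.85 with AA (edgeR adjusted p = 0.0227) and by 3.62 ± 0.86 with AA+2i (0.034). The genes of this lectin family are close copies, so the split of reads between them is uncertain. Between −221.2 and 214.4 kb of Nanog the tested genes were therefore the 5 of the locus with Foxj2 and Necap1. The median log2 fold change of the 7 neighbours was 0.21 with AA and −0.39 with AA+2i, against 2.02 and 3.23 for the 5 genes. A rise with AA was not confined to the 5. With AA+2i against 2i, 2 of the 7 neighbours were called higher and 0 lower. They were Clec4a1 (1.76 ± 0.27, edgeR adjusted p = 0.0127) and Clec4a3 (7.82, adjusted p = 0.0393, with 0 counts in 2i). Averaged over the absence and presence of 2i, AA raised Clec4a1 by 1.45 (edgeR adjusted p = 0.00157) and Clec4a3 by 6.49 (0.00257). A window of 1 Mb either side added no tested gene.

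**Figure D3:**
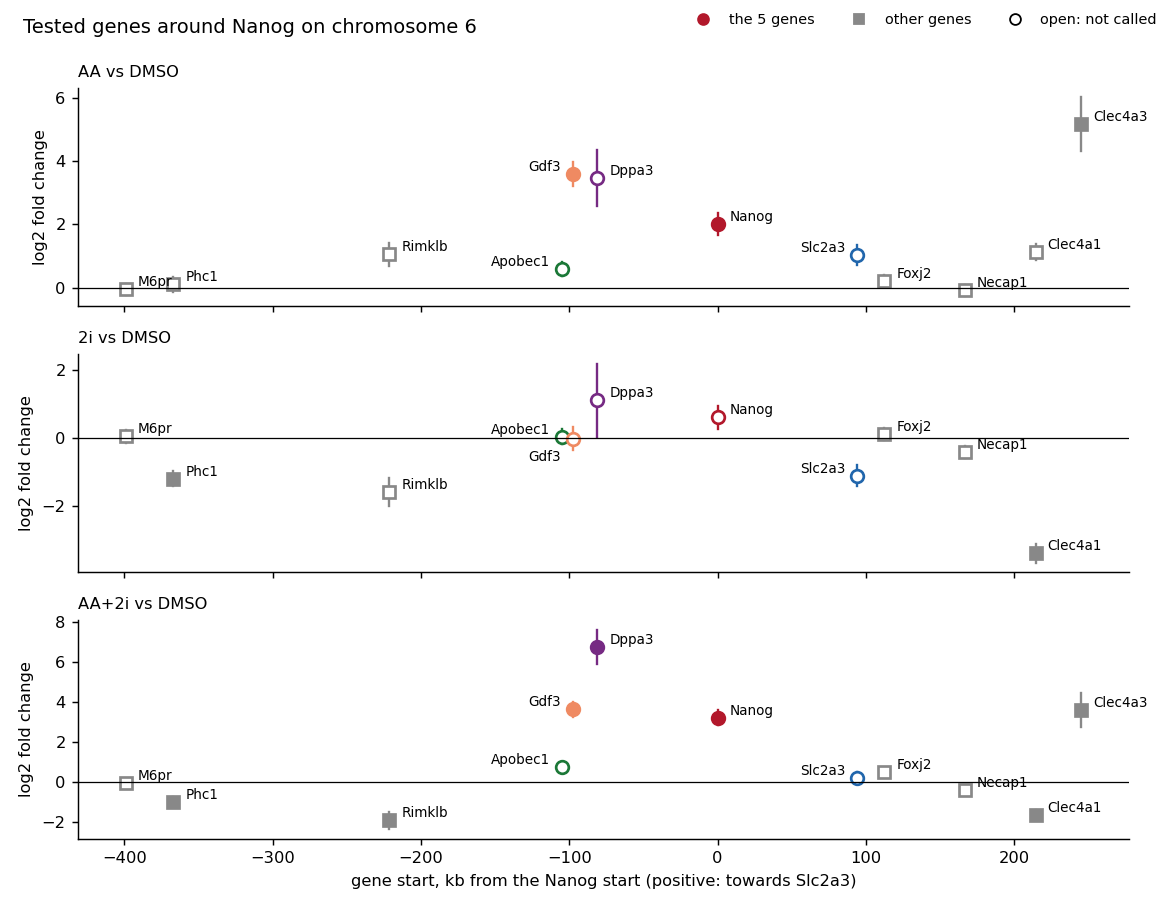
Log2 fold change ± standard error (vertical) of the 12 tested genes within 500 kb of Nanog, placed by the distance of their start from the Nanog start in kb (horizontal), for AA, 2i and AA+2i against DMSO. Circles are the 5 genes, squares the others and filled symbols those called. Clec4a3 is left out of the 2i panel, where it had no counts. In the AA+2i panel the called genes that rose were Nanog, Gdf3 and Dppa3, between 3.23 and 6.75, and the neighbour Clec4a3 at 3.62.

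The 5 genes differed in how far they moved and in the shape of their profile over the 12 libraries. After centring log2 CPM (counts scaled to library size, prior count 2) on the mean of the 12 libraries, the root mean square deviation was 0.38 for Apobec1, 0.83 for Slc2a3, 1.32 for Nanog, 1.84 for Gdf3 and 2.20 for Dppa3. Likeness between 2 genes was taken as the root mean square difference of their centred profiles, over 12 libraries and 13399 other tested genes. The nearest profiles to Nanog were those of Plbd1 (0.40), Fam154a (0.45) and Slc4a5 (0.46). Mean TPM by condition ran from 0.04 to 0.497 for Plbd1 and from 0.307 to 1.97 for Slc4a5, against 2.3 to 19.3 for Fam154a. Profiles at such low levels are less certain. Nearest to Gdf3 were 1700061G19Rik (0.34), Gpx2 (0.48) and Rab25 (0.50). Nearest to Dppa3 were Mylpf (0.67), Esrrb (0.74), which encodes an orphan nuclear receptor of the pluripotency network, and Ido2 (0.76). Rab25 (mean TPM 0.157 to 4.45), Esrrb (0.213 to 2.53) and Ido2 (0.18 to 2.53) were also low, whereas Mylpf ran from 17.2 to 349. Apobec1 was nearest to Gpr85 (0.15), Il17rb (0.18) and Tsnax (0.18), and Slc2a3 to Abp1 (0.23), Tmem45b (0.25) and Chi3l1 (0.25). None of the 3 nearest profiles of any of the 5 was another gene of the locus.

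Between members, Nanog and Gdf3 differed by 0.85, which made Gdf3 the gene of rank 110 for Nanog and Nanog that of rank 34 for Gdf3. Seen from Dppa3, Nanog had rank 19 (1.13) and Gdf3 rank 34 (1.21). Seen from Apobec1, whose profile was nearly flat, Nanog had rank 11379. The adjacent pair of Nanog and Slc2a3 differed by 1.15, at rank 967 from Nanog and rank 10922 from Slc2a3. These ranks depend on the size of a gene's own changes, since a gene that moves little is close to the many others that move little.

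**Figure D4:**
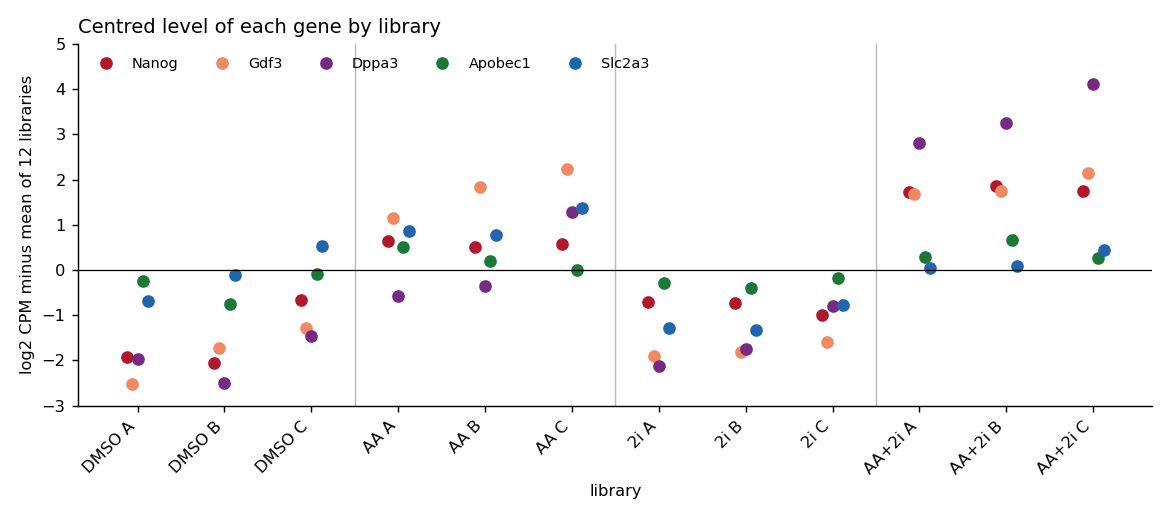
Centred log2 CPM of the 5 genes (vertical, difference from the mean of 12 libraries) in each library (horizontal, grouped by condition). Dppa3 spanned the widest range, 6.63 on the log2 scale, and Apobec1 the narrowest, 1.41.

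Of 22 genes of the pluripotency network around Nanog, 21 were tested. With AA 5 rose (Zfp42, Tdgf1, Dppa2, Dppa4 and Dppa5a) and 16 did not pass. With 2i 1 rose (Tcfcp2l1) and 2 fell (Tdgf1 and Fgf4). With AA+2i 9 rose, 1 fell (Fgf4) and 11 did not pass. The median log2 fold change of the 21 was 0.87, −0.43 and 1.05 in these comparisons. Dppa5a, an RNA-binding protein gene of early embryos, rose by 4.76 ± 0.39 with AA (edgeR adjusted p = 0.00064) and by 3.86 ± 0.37 with AA+2i (0.000281). Its difference between AA+2i and AA was not called (−0.90 ± 0.33, edgeR adjusted p = 0.171). Mean TPM of Dppa5a was nevertheless lower with AA+2i, at 674 ± 141, than with AA, at 1440 ± 217 (SD). Esrrb rose by 3.70 ± 0.54 with AA+2i (edgeR adjusted p = 0.00211) and by 2.05 ± 0.48 over AA (0.0293), as Dppa3 did. Tbx3, a T-box factor, rose by 5.08 ± 0.90 with AA+2i (edgeR adjusted p = 0.00608). Both stayed at low levels. Mean TPM was 0.23 in DMSO and 2.53 ± 0.2 with AA+2i for Esrrb, and 0.107 and 2.75 ± 1.91 for Tbx3 (SD). Counts of Pou5f1, Sox2 and Klf4 in this list may hold reads from the introduced factors.

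Around Gdf3, 15 of 20 genes of Nodal, activin and GDF signalling were tested. With AA 2 rose (Tdgf1, a Nodal coreceptor that stands in both lists, and Lefty2), with 2i 1 fell (Tdgf1), and with AA+2i 2 rose and 1 fell. The Nodal antagonist Lefty2 rose by 2.17 ± 0.36 with AA (edgeR adjusted p = 0.0145) and by 1.54 ± 0.36 with AA+2i (0.0239), and Lefty1 by 3.60 ± 0.85 with AA+2i (0.0252). Both were low, with mean TPM of 0.387 in DMSO and 1 with AA+2i for Lefty2, and 0.197 and 2.31 ± 1.17 (SD) for Lefty1. Smad3, a transducer of the pathway, fell by 0.90 ± 0.20 with AA+2i (edgeR adjusted p = 0.0186), from 19 to 8.9 TPM. The median over the list was −0.02 with AA and −0.01 with AA+2i.

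Of 9 DNA methylation enzymes set beside Dppa3, 8 were tested, and edgeR's quasi-likelihood test called 0 with AA, 2i or AA+2i against DMSO. At an unadjusted p under 0.05 there were 2 under AA, 1 under 2i and 2 under AA+2i, and DESeq2 called 0, 1 and 0 and limma 0 in each. Of 8 deaminases and cofactors set beside Apobec1, 5 were tested, and Rbm47, a cofactor of Apobec1 editing, was the 1 that was called with AA+2i (1.58 ± 0.44, edgeR adjusted p = 0.0483), where DESeq2 called 1 and limma 0. Of 26 glucose transporters and glycolytic genes set beside Slc2a3, 22 were tested. By edgeR 1 fell with 2i, the transporter gene Slc2a12 (−1.19 ± 0.24, adjusted p = 0.0195), and 0 were called with AA or AA+2i, where 0 and 3 had an unadjusted p under 0.05 and DESeq2 and limma called 0. The median log2 fold change of the 22 was 0.21 under AA, 0.29 under 2i and 0.31 under AA+2i, beside −1.10 for Slc2a3 itself with 2i. Genes named from these lists other than the largest changes with AA+2i were chosen after their values were seen.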

How the data were processed

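Libraries were made from total RNA with the TruSeq kit and read from one end, and the submitters' processing notes name mm9, Bowtie and RSEM 1.2.4. The authors trimmed the first 10 bases, filtered reads by quality and aligned them with Bowtie2 to RefSeq genes. The expected counts that the authors deposited are RSEM estimates per gene, which share ambiguous reads between genes, and the TPM they deposited scale these by length and library. The FPKM column, which the authors deposited beside it, was not tested. One malformed TPM cell of AA C, of a gene outside the locus, was recomputed from its FPKM as 40.6.

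Expected counts were rounded and fitted with edgeR 4.0.16 in R 4.3.3 (RLE factors, quasi-likelihood F test, 4 condition means, 8 residual degrees of freedom). The filter of at least 10 counts in at least 3 libraries kept 13400 of 20325 genes, and p-values were adjusted over all of them by the Benjamini-Hochberg method. Standard errors follow from F as the size of the change over √F. Alternatives were TMM factors, DESeq2 1.42.0, limma 3.58.1 on log2(TPM + 1) and log2(TPM + 0.1), other count filters, only the groups compared, the replicate letter as a block, a loess curve of GC content per library (span 0.4, GC known for 98.74% of tested genes) and leaving out each letter and each library. The scripts were tested on simulated counts. Dppa3 ratios have exact binomial 95% intervals, which cover counting error only. Genes named are the 5, the table's genes within 500 kb of Nanog, the 3 nearest profiles of each and, from each list, up to 3 genes with the largest called changes with AA+2i. Positions come from the mm9 annotation. The members and lists were chosen with earlier results of these data known.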

Additional observations from a re-analysis of the deposited data

How the results depend on the processing

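Of 823 values of the 5 genes under an alternative, 740 stayed on the same side of the threshold, 42 no longer passed and 41 newly passed. No called value changed sign. Of the 740, 35 changed sign (to 2 decimals), and these lay between −0.23 and 0.30 and were called neither as reported nor under the alternative. They were 17 values of 2i against DMSO or 2i averaged over both backgrounds and 8 of AA+2i against AA, for Gdf3 and Apobec1, 9 interactions and Slc2a3 with AA+2i against DMSO (−0.04 without DMSO A). The number of the 5 genes called with AA against DMSO, 2 as reported, was 0 when only the groups compared were fitted (edgeR adjusted p = 0.0964 for Gdf3 and 0.234 for Nanog), where 0 of all tested genes were called and 733 had an unadjusted p under 0.05. In that fit the count between AA+2i and AA was 1 as before, but Dppa3 missed the threshold (0.0505) and Nanog passed (0.0271). With 2i, 0 as reported, 1 gene was called with DESeq2, with limma on log2(TPM + 1) or log2(TPM + 0.1) and with GC correction, each time Slc2a3. With AA+2i against 2i, 3 as reported, 5 were called with GC correction. With AA+2i against AA, 1 as reported, 2 were called with DESeq2, GC correction or Nanog and Nanogpd summed (Nanog in each), and 0 when 10 counts were required in every library, a filter that Dppa3 does not meet. Under that filter Apobec1 passed with AA+2i against DMSO (0.78, edgeR adjusted p = 0.0473).

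Nothing in the labels says that a replicate letter marks a shared batch. Libraries with the same letter had a mean correlation of deviations of 0.401, but it ranged from −0.588 to 0.894 over 18 pairs, against −0.196 over 36 pairs of different letters. With the letter as a replicate block, 4 genes were called for AA, 1 for 2i and 3 for AA+2i against AA, beside 594, 1782 and 1992 of all 13400 tested genes. With GC correction and the replicate block, the counts were 5 with AA, 1 with 2i, 5 with AA+2i against 2i and 3 with AA+2i against AA. Beside these, 1438, 3312, 1454 and 3685 of all 13400 tested genes were called. In both fits Slc2a3 was the gene called with 2i, and it fell. It also fell with AA+2i against AA, by 0.81 with the block (edgeR adjusted p = 0.0124) and by 0.76 with both (0.00402).

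Leaving out each replicate letter or library in turn gave 0 to 2 genes with AA, 0 to 1 with 2i, 0 to 4 with AA+2i against DMSO, 0 to 4 with AA+2i against 2i and 0 to 2 with AA+2i against AA. Over all tested genes (12866 to 13384), these fits called 0 to 164 with AA, 11 to 658 with 2i and 18 to 1406 with AA+2i. They called 0 to 159 with AA+2i against 2i and 7 to 890 with AA+2i against AA, so the totals moved as well. Leaving out each letter gave 0 to 4 for AA (5 as reported) and 0 to 2 for 2i (3 as reported) averaged over the other treatment. Beside these, 2 to 306 and 276 to 1301 of all tested genes were called. For the 5 genes, all 0s at the low end but those with 2i include the fit without replicate B, which leaves the spread to 2 libraries per condition.

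The count of all genes called moved by over 1.5 times. Against DMSO it was 179 for AA, 592 for 2i and 1117 for AA+2i, and for AA+2i it was 122 against 2i and 817 against AA, where DESeq2 gave 454, 1099, 1879, 468 and 1309 (and 26 interactions in place of 2). It was 527, 1549, 2565, 578 and 1924 with GC correction, 594, 1782, 4229, 606 and 1992 with the replicate block, 1438, 3312, 4867, 1454 and 3685 with both, 0, 187, 581, 134 and 435 in the fits of only the groups compared, and 94, 366, 729, 74 and 507 with 10 counts in every library. On log2(TPM + 1) the median of all genes shifted by −0.13 with 2i and −0.15 with AA+2i, which the Slc2a3 value with 2i (−1.21) exceeds. The causes of these differences were not tested. Dppa3 held 1 to 4 counts in each DMSO and 2i library.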
